A study of Mus musculus with 6 samples.

Results

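Solute carriers are the membrane transporters whose genes carry the symbols Slc and Slco. Their transcripts were measured in inguinal fat of mice at the upper and the lower end of weight gain on a high-fat diet. Members were the genes with a single symbol in the probe annotation that began with Slc, a family number, the letter a and a member number, or with Slco, and each was represented by its brightest probe among those with a value on all 6 arrays. The array held a named probe for 280 such genes out of 13840 named genes, and 140 of the 280 had a value on all 6 arrays, out of 8596 named genes that did. The mice were male C57BL/6J, an inbred strain, and were fed the high-saturated-fat diet D12331 for 4 weeks from 8 weeks of age. High gainers were 8 mice with high weight gain whose RNA formed 1 pool, and low gainers were 8 mice with low weight gain whose RNA formed another. Each pool was labelled and run on 3 one-colour arrays, so that each set of 3 arrays repeats a measurement of the same RNA, n counts arrays, and every p-value measures the spread between arrays of these 2 pools and not the spread between mice.

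Solute carriers move nutrients, ions, metals and metabolites across the plasma membrane and the membranes of organelles, most of them along or coupled to a gradient and without direct use of ATP. In a fat cell they bring in glucose, amino acids and fatty acids, release lactate, supply zinc, iron and phosphate, and carry citrate, carnitine esters, aspartate and nucleotides between the mitochondrion and the cytosol. The insulin-responsive glucose carrier Slc2a4 and the fatty acid transport protein Slc27a1 are the members best known from this tissue.

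Between high and low gainers, 9 of the 140 measured solute carriers passed the test (limma, adjusted p under 0.01 over all probes and a fold of at least 1.5), which is 6.43%, against 6.5% of all 15821 tested probes and 6.95% of all 8596 measured named genes. In high gainers 4 members were higher (2.86%, against 2.5% of all probes and 2.91% of named genes) and 5 were lower (3.57%, against 3.99% and 4.04%). The ANOVA of the methods (unadjusted p under 0.01 and the same fold) called the same 4 higher genes and 6 lower genes, these 5 and Slc9a3r1, against 3.0% and 4.29% of all probes. The higher genes were Slc6a13 and Slc6a8, carriers of GABA and creatine, Slc27a5, an enzyme and transport protein for bile acids and fatty acids, and Slc43a3, a carrier of purine nucleobases. The lower genes were Slco4a1, Slc39a4, Slc2a6, Slc15a3 and Slc25a12, which carry organic anions, zinc, hexoses, peptides with histidine, and mitochondrial aspartate and glutamate. The share of members called was thus near that of all probes, and no substrate group held more than 2 called genes.

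The median ratio of the family was near 0, and ratios above 0 were somewhat more frequent than among all probes, a difference that was not tested. The median log2 ratio of the 140 members, high over low gainers, was 0.07, against 0.03 over all tested probes. Of the 140 ratios, 85 (60.7%) lay above 0, against 54.1% of all probes and 4867 of the 8596 named genes. Within 1.5-fold in either direction were 118 members (84.3%), against 88.4% of all probes and 7629 of the 8596 named genes. All 3 high-gainer arrays lay above all 3 low-gainer arrays for 33 members (23.6%, against 20.3% of all probes and 22.0% of named genes) and below them for 21 (15.0%, against 16.3% and 15.9%). An unadjusted p under 0.05 was reached by 32 members with a ratio above 0 (22.9%, against 17.4% of all probes and 18.3% of named genes) and by 19 below 0 (13.6%, against 13.6% and 12.5%).

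**Figure D1:**
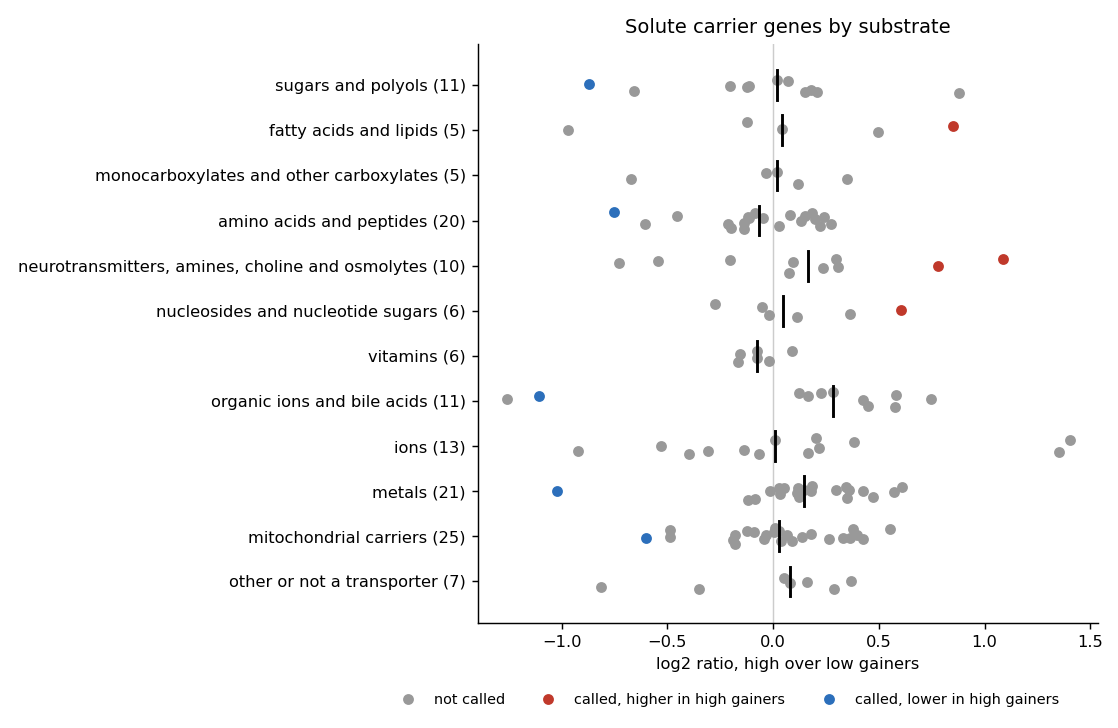
Log2 ratio of signal, high over low gainers, for each of the 140 measured solute carriers (points), by substrate group with the number of measured genes in brackets; black bars are group medians, red points were called higher and blue points lower in high gainers. The medians lie between -0.08 for vitamin carriers and 0.29 for carriers of organic ions and bile acids, with called genes on both sides of 0.

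In bulk tissue, fewer cells of a type and less RNA per cell cannot be told apart, and the 2 pools differed in markers of several cell types. Adipocyte markers were present on every array. The summed signal of the 5 measured markers was 1919276 to 2406087 on high-gainer arrays and 1453661 to 1922703 on low-gainer arrays. Within that sum, Lep had a mean of 898920 in high gainers and 504731 in low gainers. Of the 5, only Lep was called, higher in high gainers. Every high-gainer array lay above every low-gainer array for 2 markers (Lep and Retn) and below for 1 (Cidec). All 4 measured B lymphocyte markers were lower in high gainers (summed signal 78568 to 83079, against 277180 to 291872 in low gainers), as were 3 of 4 T lymphocyte markers (68898 to 80725, against 208736 to 244645), 6 of 6 skeletal muscle markers (888122 to 975529, against 1675146 to 1905205) and 3 of 4 epithelial markers (20520 to 29746, against 51264 to 52305). Of the 4 measured brown and beige adipocyte markers, whose summed signal was 80701 to 92469 in high gainers and 154324 to 174211 in low gainers, 1 (Ucp1) was called lower by limma and 2 by the ANOVA, 3 had an unadjusted p under 0.05, and all 4 had every high-gainer array below every low-gainer array. None of the 3 myeloid markers (28727 to 29610, against 26557 to 27843), 2 red blood cell markers (813775 to 876502, against 709664 to 759085), 4 endothelial markers (285013 to 334491, against 269072 to 284378) or 5 stromal markers (2785187 to 3324252, against 2434616 to 3025311) passed the limma test or the ANOVA, and an unadjusted p under 0.05 was reached by 2 endothelial and 3 stromal markers, all with ratios above 0, and by 0 of the others. Of the defining markers, Cd8a and Lck had no named probe, and Cd3e, Epcam, Cidea and Elovl3 had blanks on some arrays. The part of these cell types in the solute carrier results was not tested.

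Slc6a13, known as GAT2, takes up GABA, taurine and betaine. Signals were 27728, 28844 and 36507 on the high-gainer arrays, against 11345, 16948 and 15775 on the low-gainer arrays. Every high-gainer array lay well above every low-gainer array, and the spread was wide in both pools. The gene was 2.13-fold higher in high gainers (log2 ratio 1.09 ± 0.18 SE, adjusted p = 0.0072, limma), the largest fold among the members called higher. Slc6a8 carries creatine into cells, where it feeds the phosphocreatine buffer. Its probe read 15892, 15296 and 17954 in high gainers and 9227, 9253 and 10064 in low gainers. The pools did not overlap, and the gene was 1.72-fold higher in high gainers (log2 0.78 ± 0.10 SE, adjusted p = 0.0027). Both belong to the sodium- and chloride-coupled Slc6 family, of which 4 of 15 genes with a named probe were measured on all arrays. All 4 ratios were above 0, as were 54.1% of those of all probes, and the difference was not tested.

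Slc27a5 joins bile acids and very long-chain fatty acids to coenzyme A and is best known from liver. Signals were 10861, 9948 and 14448 in high gainers, against 6691, 6051 and 6566 in low gainers. The third high-gainer array was the highest and the low-gainer arrays lay close together. The gene was 1.80-fold higher in high gainers (log2 0.85 ± 0.15 SE, adjusted p = 0.0092). Slc43a3 carries purine nucleobases such as adenine and has been tied to fatty acid handling in mouse adipocytes. On the high-gainer arrays it read 110201, 96486 and 108143, against 66251, 67385 and 73006 on the low-gainer arrays. The pools were separated by more than the spread within either, and the gene was 1.52-fold higher in high gainers, just past the fold threshold (log2 0.61 ± 0.10 SE, adjusted p = 0.0070).

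Slco4a1 is an organic anion transporter that carries thyroid hormones and prostaglandins. Signals were 2357, 2292 and 2882 in high gainers and 5443, 5842 and 4900 in low gainers. The highest high-gainer array lay far below the lowest low-gainer array. The gene was 2.15-fold lower in high gainers (log2 -1.11 ± 0.13 SE, adjusted p = 0.0013). Slc39a4, or ZIP4, is the zinc importer of the intestinal epithelium. It read 2495, 2677 and 2252 in high gainers, against 5257, 5062 and 4739 in low gainers. The difference had the lowest adjusted p of the 140 members, 2.03-fold lower in high gainers (log2 -1.02 ± 0.10 SE, adjusted p = 0.00086). Both probes are dim, with mean values in the lowest 33.3% of the tested probes. They were the 2 members that kept their calls whichever of the 6 arrays was left out, while an offset of the 10th percentile of the values before the log step ended the call of Slc39a4 (log2 -0.56, below 1.5-fold, adjusted p = 0.0010). With the same offset Slco4a1 kept its call, at a log2 ratio of -0.62 that lay close to the fold threshold (adjusted p = 0.00086, limma).

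Slc2a6, or GLUT6, is a hexose carrier of intracellular membranes known from spleen and leukocytes. Signals were 10558, 10300 and 12662 in high gainers, against 23567, 18326 and 19415 in low gainers. The pools did not overlap, and the gene was 1.83-fold lower in high gainers (log2 -0.87 ± 0.14 SE, adjusted p = 0.0055). Slc15a3 moves histidine and small peptides across the lysosomal membrane and is known from immune cells. It read 8753, 8295 and 7759 in high gainers and 14363, 13395 and 14057 in low gainers. The arrays of each pool lay close together, and the gene was 1.69-fold lower in high gainers (log2 -0.75 ± 0.09 SE, adjusted p = 0.0021). Slc25a12, or aralar, exchanges aspartate for glutamate across the inner mitochondrial membrane and is known from skeletal muscle and brain. Signals were 47450, 44875 and 47408 in high gainers and 72332, 68414 and 70981 in low gainers. The gene was 1.52-fold lower in high gainers (log2 -0.60 ± 0.09 SE, adjusted p = 0.0042), close to the fold threshold. With 1 array left out, Slc25a12, Slc27a5, Slc43a3 and Slc6a13 lost their calls in all 6 fits, with adjusted p up to 0.0242, 0.0349, 0.04 and 0.0232, Slc2a6 was called in 1, Slc6a8 in 2 and Slc15a3 in 3, with adjusted p up to 0.0305, 0.0153 and 0.0127. When probes with values on at least 2 arrays of each pool were tested, Slc6a13, Slc27a5 and Slc43a3 missed the threshold (adjusted p = 0.0109, 0.0136 and 0.0107).

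**Figure D2:**
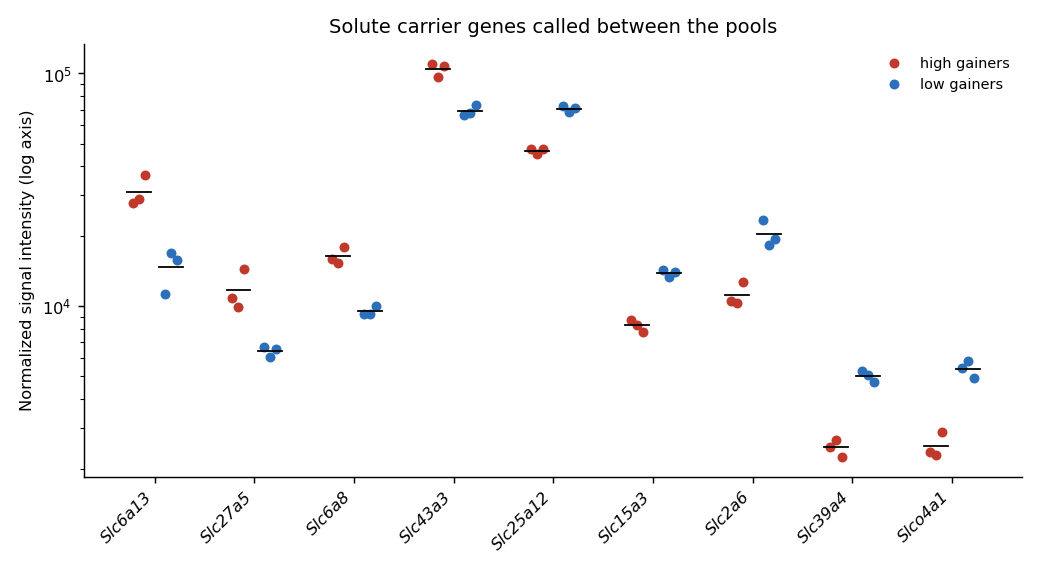
Normalized signal intensity on a log axis for the 9 called solute carriers, with 1 point for each of the 3 arrays of the high-gainer pool (red) and the low-gainer pool (blue) and a bar at the mean. The pools do not overlap for any of the 9 genes, of which 4 are higher and 5 lower in high gainers.

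The bases just upstream of the start are shown for the 4 called genes found in the RefSeq promoter table (mouse build GRCm38.p6), to show how far the upstream sequences of called genes differ. Each run is the 150 bases before the most upstream listed start, written 5′ to 3′ on the gene's strand, and capitals mark matches, on either strand, to TATAAA, to CCAAT, to GGGCGG (a GC box) or to CANNTG (an E-box). They lie at chr2:180456095-180456244 (plus strand, Slco4a1), chr2:27027999-27028148 (minus strand, Slc2a6), chr2:71367756-71367905 (minus strand, Slc25a12) and chr6:121300138-121300287 (plus strand, Slc6a13).
Slco4a1: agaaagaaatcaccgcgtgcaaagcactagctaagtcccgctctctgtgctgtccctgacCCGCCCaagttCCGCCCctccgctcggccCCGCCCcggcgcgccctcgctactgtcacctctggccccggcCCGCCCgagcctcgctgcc
Slc2a6: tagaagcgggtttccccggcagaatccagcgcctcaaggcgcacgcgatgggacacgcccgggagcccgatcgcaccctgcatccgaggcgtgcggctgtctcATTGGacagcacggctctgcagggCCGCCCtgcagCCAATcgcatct
Slc25a12: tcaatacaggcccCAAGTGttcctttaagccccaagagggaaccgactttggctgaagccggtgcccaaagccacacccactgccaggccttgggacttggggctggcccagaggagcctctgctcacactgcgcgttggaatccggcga
Slc6a13: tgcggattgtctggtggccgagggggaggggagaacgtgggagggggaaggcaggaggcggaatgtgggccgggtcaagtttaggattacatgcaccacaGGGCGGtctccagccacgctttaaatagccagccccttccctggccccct
The Slco4a1 run held 4 matches to GGGCGG, that of Slc2a6 held 2 to CCAAT and 1 to GGGCGG, that of Slc6a13 held 1 to GGGCGG and that of Slc25a12 held 1 to CANNTG. None of the 4 held TATAAA. Over 32851 promoter stretches of the same length, 28.6% held GGGCGG, 24.5% CCAAT, 47.7% CANNTG and 7.57% TATAAA. The GC content was 70.0% for Slco4a1, 67.3% for Slc2a6, 63.3% for Slc6a13 and 61.3% for Slc25a12, against a median of 54.0%. A match describes letters and not a bound site, and no motif was held by all 4.

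Among 25 carriers of sugars and polyols with a named probe, 11 were measured on all arrays, and only Slc2a6 passed the test. Slc2a4 (GLUT4), the carrier that insulin brings to the fat cell surface, had signals of 71901, 72740 and 73796 in high gainers and 66630, 74195 and 74827 in low gainers. The pools overlapped, and the 95% interval of the log2 ratio ran between -0.20 and 0.24 around 0.02 (adjusted p = 0.91). Slc2a10 (GLUT10) read 6386, 7411 and 6493 in high gainers and 4823, 3982 and 2567 in low gainers, a log2 ratio of 0.88 ± 0.22 SE that missed the threshold (adjusted p = 0.035). Slc37a2, which exchanges glucose 6-phosphate for phosphate, had a log2 ratio of -0.66 (adjusted p = 0.068). The basal glucose carrier Slc2a1 had a value on 0 high-gainer arrays and 1 low-gainer array. Slc2a3 had a value on 1 high-gainer array (1852) and on all 3 low-gainer arrays (2349, 3981 and 1747).

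All 5 carriers of fatty acids and lipids with a named probe were measured. They were 4 genes of the Slc27 family and Slc33a1, whose pools overlapped (log2 -0.12, adjusted p = 0.56). Slc27a1 (FATP1), which takes up long-chain fatty acids in fat and muscle, showed the widest gap of the group. Signals were 122602, 123275 and 121267 in high gainers, against 194528, 318938 and 221748 in low gainers. The high-gainer arrays were nearly equal, whereas the low-gainer arrays were spread, with replicate 2 the highest. The log2 ratio of -0.97 ± 0.18 SE (1.96-fold lower in high gainers) narrowly missed the threshold (adjusted p = 0.011), and it passed without low gainers replicate 1 or replicate 2. Slc27a2 (FATP2), an acyl-CoA synthetase for very long chains, read 7135, 7223 and 7099 in high gainers and 5766, 5427 and 4154 in low gainers (log2 0.50, adjusted p = 0.046). Slc27a4 (FATP4), an acyl-CoA synthetase of the endoplasmic reticulum, read 11754, 11483 and 11256 in high gainers and 11497, 10558 and 11520 in low gainers. Its pools overlapped (log2 0.04, 95% interval between -0.17 and 0.25). Within the measured Slc27 genes, then, only Slc27a5 passed the test and the ratios of Slc27a1 and Slc27a5 had opposite signs.

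**Figure D3:**
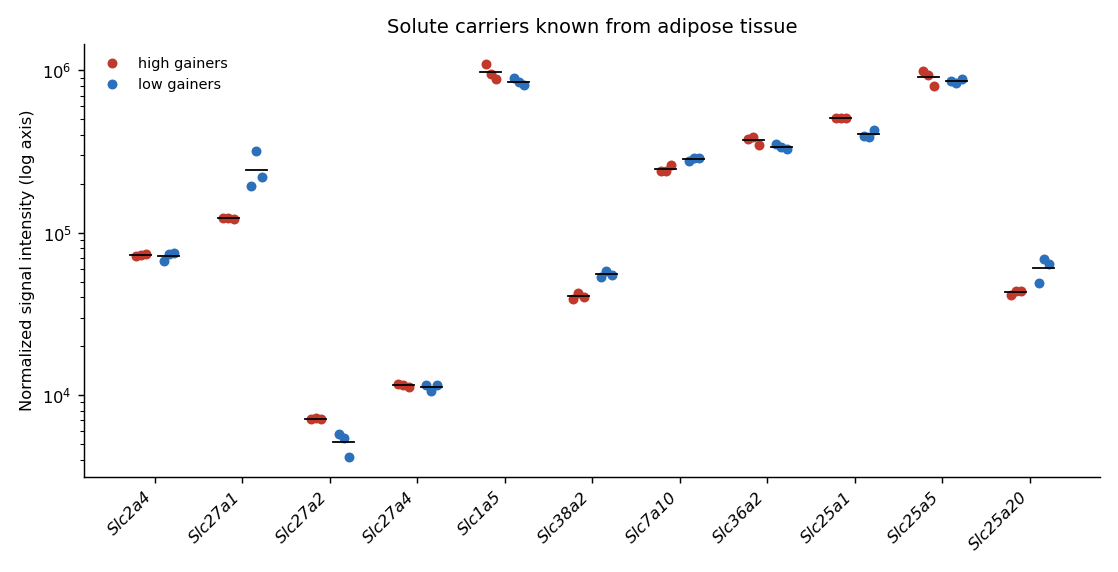
Normalized signal intensity on a log axis for 11 solute carriers known from adipose tissue, with 1 point per array for high gainers (red) and low gainers (blue) and a bar at the mean of each 3. No gene shown passed the test, and the gap is widest for Slc27a1, where the 3 high-gainer arrays lie between 121267 and 123275.

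Of 14 genes for monocarboxylates and other carboxylates, 5 were measured and none passed the limma test, while 1 gene on each side of 0 had an unadjusted p under 0.05 and the ANOVA of the methods called none. The lactate carrier Slc16a1 (MCT1) had overlapping signals of 8177, 8434 and 8000 in high gainers and 6889, 9304 and 9185 in low gainers. Slc16a3 (MCT4), the carrier of glycolytic tissues for lactate release, had a dim probe and a log2 ratio of 0.02 ± 0.21 SE. Slc16a6 (MCT7), a ketone body exporter in zebrafish liver, read 35208, 32557 and 34573 in high gainers, against 67099, 41063 and 57988 in low gainers. Its pools did not overlap, but the low-gainer arrays were spread and the log2 ratio of -0.67 ± 0.18 SE did not pass (adjusted p = 0.042).

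Carriers of amino acids and peptides formed the largest group, with 51 genes, of which 20 were measured, and only Slc15a3 was called. Its close relative Slc15a4, also a lysosomal carrier of histidine and peptides, read 17774, 19757 and 15923 in high gainers and 26349, 24391 and 30657 in low gainers. The pools did not overlap, and the log2 ratio of -0.61 ± 0.13 SE missed the threshold (adjusted p = 0.019). Slc38a2 (SNAT2), a sodium-coupled carrier of neutral amino acids that cells make more of when amino acids are scarce, read 38864, 42576 and 40299 in high gainers, against 53541, 58399 and 55111 in low gainers. Again the pools did not overlap, with a log2 ratio of -0.46 ± 0.09 SE and an adjusted p of 0.016.

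Apart from Slc38a2, the measured amino acid carriers on the list of members known from adipose tissue had log2 ratios between -0.21 and 0.20. None of them passed the test. Slc1a5 (ASCT2), a glutamine carrier, read 1100378, 955848 and 888445 in high gainers and 895342, 849158 and 809999 in low gainers, with overlapping pools and a log2 ratio of 0.20 ± 0.11 SE. Slc7a10 (Asc-1), a serine and glycine carrier used as a surface marker of white fat cells, read 238743, 239512 and 260149 in high gainers, against 277212, 289126 and 287887 in low gainers. The high-gainer arrays all lay below, by little (log2 -0.21 ± 0.09 SE, adjusted p = 0.16). Slc36a2 (PAT2), a proton-coupled carrier of small amino acids and a surface marker of beige and brown fat cells, had a log2 ratio of 0.13 (adjusted p = 0.40) while the brown fat gene Ucp1 was lower in high gainers. Slc3a2, the partner chain of several Slc7 carriers, and the glutamate carrier Slc1a3 had log2 ratios of 0.18 and -0.09 with overlapping pools. Slc7a5 (LAT1), a carrier of large neutral amino acids, had a value on 1 high-gainer array (1052) and on all 3 low-gainer arrays (2657, 1962 and 1295).

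The carriers of neurotransmitters, amines, choline and osmolytes, 10 measured of 21, held Slc6a13 and Slc6a8. Of the choline transporter-like family, Slc44a2 read 53165, 57381 and 44655 in high gainers and 98919, 61859 and 68800 in low gainers. Its first low-gainer array stood above the rest, and the log2 ratio of -0.54 ± 0.19 SE did not pass (adjusted p = 0.097). The other measured members of that family, Slc44a1 and Slc44a3, had ratios above 0 with pools that did not overlap, and neither passed (log2 0.30 each, adjusted p = 0.11 and 0.13). Carriers of nucleosides and nucleotide sugars, 6 measured of 10, held Slc43a3 and no other member with an unadjusted p under 0.05. None of the 6 measured vitamin carriers of 9 passed the limma test or the ANOVA of the methods, and none had an unadjusted p under 0.05. Slc5a6, which takes up biotin and pantothenate, had a log2 ratio of 0.09 ± 0.09 SE, and Slc46a3, a lysosomal relative of the folate carrier, one of -0.17 ± 0.10 SE.

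Of 33 carriers of organic ions and bile acids, 11 were measured. Of the 11 ratios 9 lay above 0, against 54.1% of all probes, although the only called gene, Slco4a1, was lower. A single low-gainer array carried the other ratio below 0, that of Slc22a21. Whether the group differed from all probes was not tested, and 6 of the 11 genes had dim probes. Slc22a17, a receptor for lipocalin 2 in this family, read 37587, 37264 and 37946 in high gainers, against 27060, 23937 and 24835 in low gainers. Its adjusted p of 0.0063 passed, but its log2 ratio of 0.57 ± 0.09 SE was just under 1.5-fold. Slc10a6, a carrier of sulfated steroids, read 22141, 19887 and 23841 in high gainers and 17131, 13139 and 13878 in low gainers (log2 0.58, adjusted p = 0.024). The liver carrier Slco1b2 had a log2 ratio of 0.75 ± 0.26 SE (adjusted p = 0.095).

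Carriers of other ions were the least often measured, 13 of 43 genes, and none passed the limma test or the ANOVA of the methods, while 3 genes above 0 and 2 below had an unadjusted p under 0.05. Slc26a5 (prestin), the motor protein of cochlear outer hair cells, had the highest ratio of all 140 members. Signals were 29213, 30347 and 13182 in high gainers, against 13063, 7988 and 6076 in low gainers. The lowest high-gainer array only just exceeded the highest low-gainer array, and the log2 ratio of 1.40 ± 0.38 SE did not pass (adjusted p = 0.046). Slc13a4, a sulfate carrier, had a similar ratio of 1.35 ± 0.45 SE on the log2 scale, with the highest low-gainer array (2882) barely under the lowest high-gainer array (2891). Slc4a8, a sodium-dependent exchanger of bicarbonate and chloride, read 4674, 6726 and 4794 in high gainers and 12572, 9178 and 8878 in low gainers (log2 -0.92 ± 0.19 SE, adjusted p = 0.017). Slc12a2 (NKCC1), the sodium, potassium and chloride cotransporter that regulates cell volume, had 13373, 12601 and 12634 in high gainers and 16254, 17943 and 16731 in low gainers (log2 -0.40, adjusted p = 0.026). The phosphate carrier Slc20a1 had a log2 ratio of 0.01 ± 0.12 SE.

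Metal carriers were the group measured most often apart from the fatty acid carriers, 21 of 26 genes. Of the 21 ratios 17 lay above 0, against 54.1% of all probes, while the only called gene, Slc39a4, was lower. Whether the group differed from all probes was not tested. Slc39a3 (ZIP3), a zinc importer, read 34411, 36825 and 37877 in high gainers, against 26390, 22927 and 24195 in low gainers. Like Slc22a17 it passed on its adjusted p of 0.0087 and not on its fold (log2 0.57 ± 0.10 SE). Slc41a3, a magnesium carrier, read 2300, 3443 and 2765 in high gainers and 1634, 2040 and 1846 in low gainers (log2 0.61, adjusted p = 0.044). Slc39a14 (ZIP14), an importer of zinc, iron and manganese, overlapped between the pools (log2 0.35 ± 0.18 SE), as did Slc40a1 (ferroportin), the iron exporter (log2 -0.02 ± 0.12 SE). An unadjusted p under 0.05 was reached by 6 metal carriers with ratios above 0 and by Slc39a4. Over all probes, 17.4% reached it with a ratio above 0 and 13.6% with a ratio below 0. The 10 measured Slc39 zinc importers had a median log2 ratio of 0.18 and the 5 measured Slc30 zinc exporters one of 0.03. Slc39a1 had 2 tested probes with opposite signs, 0.18 for the brighter and -0.37 for the other, neither past the test.

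**Figure D4:**
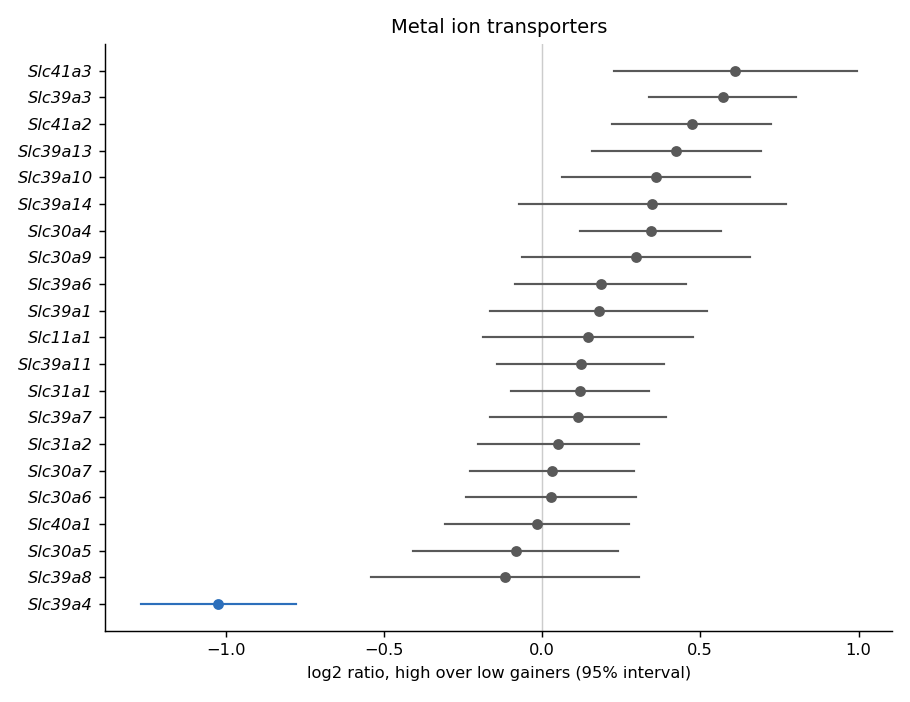
Log2 ratio of signal, high over low gainers, with its 95% interval from limma, for the 21 measured metal carriers in order of their ratio, with the called gene in blue. Slc39a4 lies at -1.02, apart from the other 20, which lie between -0.12 and 0.61.

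Of 34 mitochondrial carriers (Slc25), 25 were measured, 15 with a ratio above 0 and 10 below, and only Slc25a12 was called. Slc25a13 (citrin), the other aspartate and glutamate exchanger, had a log2 ratio of 0.38 ± 0.17 SE with overlapping pools and a dim probe, and the difference between the 2 genes was not tested. Slc25a1, which exports citrate for fatty acid synthesis, read 509479, 506271 and 506271 in high gainers and 394204, 390987 and 426450 in low gainers. The pools were separated by more than the range of either, but the ratio was small and did not pass (log2 0.33 ± 0.09 SE, adjusted p = 0.044). Slc25a20, which brings acylcarnitines in for oxidation, read 41071, 43902 and 43950 in high gainers, against 49056, 69218 and 64408 in low gainers, a log2 ratio of -0.49 ± 0.14 SE (adjusted p = 0.055). The ratios of the citrate and the acylcarnitine carrier thus had opposite signs, with neither past the threshold.

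Slc25a5, an ADP and ATP exchanger, read 985981, 933424 and 797350 in high gainers and 859583, 841521 and 881576 in low gainers. Its pools overlapped, with a log2 ratio of 0.07 ± 0.11 SE. Among the carriers of ATP-magnesium for phosphate, Slc25a24 and Slc25a23 had log2 ratios of 0.55 and 0.40 that did not pass (adjusted p = 0.030 and 0.11), and Slc25a25 had one of -0.03. Of the 7 measured genes with an Slc symbol that are not transporters or fall outside the other groups, none passed the limma test. Among the 7, 2 above 0 and 2 below had an unadjusted p under 0.05. The scaffold protein gene Slc9a3r1 came closest, at 21653, 22434 and 17683 in high gainers and 41772, 30712 and 36381 in low gainers (log2 -0.81 ± 0.15 SE, adjusted p = 0.011), and it was called by the ANOVA of the methods.

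Transport genes without an Slc symbol were also read, from a list of 37 that held the uncoupling proteins, aquaporins, sodium pump chains, sideroflexins and chaperones of the monocarboxylate carriers. Of these 21 were measured, with 1 higher in high gainers and 1 lower (9.52% called, against 6.5% of all probes) and a median log2 ratio of 0.05. Mfsd2a, which carries lysophospholipids, read 4816, 5685 and 4006 in high gainers, against 2878, 2764 and 2522 in low gainers (log2 0.82, adjusted p = 0.0089). Ucp1, the uncoupling protein of brown fat and itself a mitochondrial carrier of the Slc25 fold, read 6936, 7717 and 7927 in high gainers and 48242, 60758 and 46376 in low gainers (log2 -2.77, adjusted p = 0.00017). Bsg, the chaperone of Slc16a1 and Slc16a3, and Cd36, the fatty acid translocase, had log2 ratios of 0.03 and 0.08 with overlapping pools.

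Solute carriers were measured on all arrays in a smaller share than named genes at large, 140 of 280 against 62.1%, and 67 (23.9%) had no value on any array, against 18.2%. The remaining 73 had values on 1 to 5 arrays. The share with no value on any array was highest among carriers of ions, 18 of 43 genes (41.9%), followed by vitamins (3 of 9), amino acids and peptides (16 of 51) and organic ions and bile acids (10 of 33). Only 1 of 26 metal carriers, 4 of 34 mitochondrial carriers and none of the 10 carriers of nucleosides and nucleotide sugars or the 5 of fatty acids lacked a value everywhere.

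**Figure D5:**
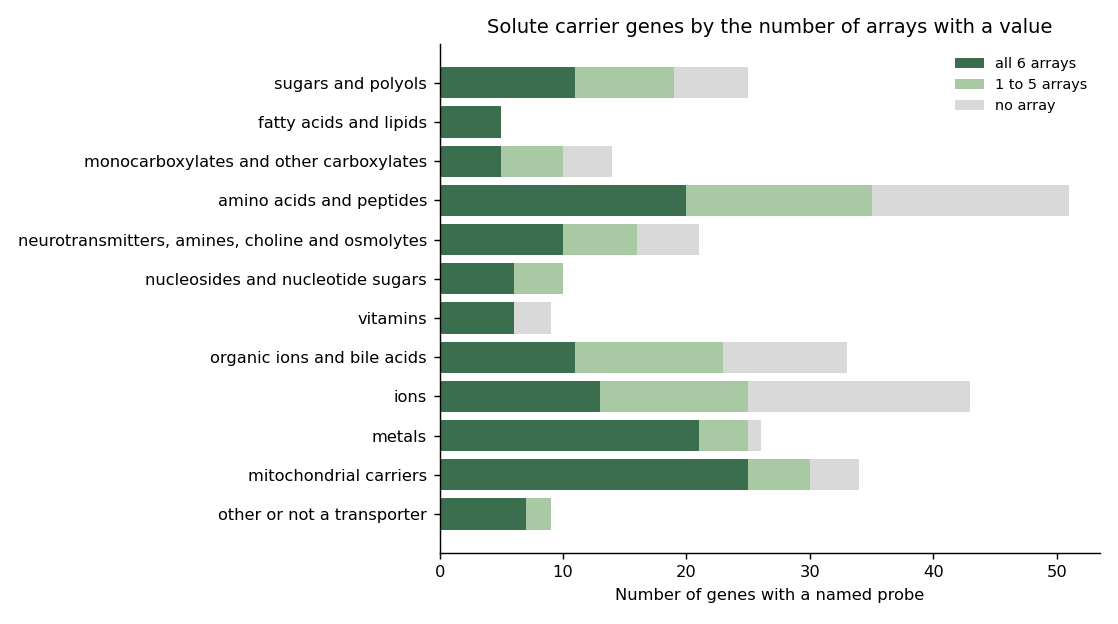
Number of solute carrier genes with a named probe in each substrate group, divided by whether the gene had a value on all 6 arrays (dark), on 1 to 5 arrays (light) or on none (grey). Metal and mitochondrial carriers are mostly dark, with 21 of 26 and 25 of 34 genes, whereas 18 of 43 ion carriers are grey.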

How the data were processed

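RNA of inguinal fat was measured on one-colour mouse arrays with chemiluminescent detection, from 1 ug of total RNA per labelling. The deposited values are linear signal intensities, which the authors normalized by the quantile method, with blank cells where no value is given. The methods keep features with a signal-to-noise value of at least 3 and a quality flag under a set limit. The sources used here do not say what left a cell blank. Of 33012 probes, 18018 to 20605 had a value per array, and the small number of arrays limits the precision. Correlations of log2 values were 0.9875 to 0.9936 within a pool and 0.9719 to 0.9797 between pools.

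The 15821 probes present on all 6 arrays were taken to log2 without further normalization, background correction or pseudocount, and the pools were compared in R 4.3.3 with the moderated test of limma 3.58.1 (functions lmFit and eBayes) on 4 residual degrees of freedom. Calls needed an adjusted p (Benjamini-Hochberg, over all tested probes) under 0.01 and a fold of at least 1.5, the thresholds of the methods for an unadjusted p. The steps were tested on simulated data. Genes were named through the probe annotation, where 14411 probes had 1 symbol, 247 had several and 18354 had none, and promoters through RefSeq tables of GRCm38.p6. No probe coordinates are printed because the sources used here name no build. No level was compared between probes. Besides Slco4a1 and Slc39a4, dim probes stood for Slc2a10, Slc37a2, Slc27a2, Slc16a3, Slc13a4 and Slc4a8 among the genes whose ratios are given. The same held for Slco1b2, Slc22a21, Slc41a3, Slc39a14, Slc40a1 and Slc25a13.

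The members and lists were chosen with earlier results of these data known. The genes to name were every called member, in each substrate group the 2 largest ratios among members whose high-gainer arrays all lay above the low-gainer arrays and the 2 smallest among those whose high-gainer arrays all lay below, and 29 members known from adipose tissue, of which 21 were measured, together 52 genes. Slc22a17, Slc22a21, Slc25a13, Slc39a1, Slc44a1 and Slc44a3, like the genes with blanks, fall outside this rule or were not measured on all arrays and were chosen after their values were seen. Some of the 52 are not printed, and 1 gene is not reported here. Marker lists were those of adipocytes, brown and beige adipocytes, B and T lymphocytes, skeletal muscle, epithelium, myeloid cells, red blood cells, endothelium and stromal cells. Alternatives tried were centering, quantile normalization once more, removal of dim probes, and probes with values on at least 2 arrays of each pool. Others were an offset of the 10th percentile (2848), an intensity trend with robust estimation and a replicate block. The methods' ANOVA (for 2 groups an equal-variance test), the mean over probes, a fold threshold of 2 or none, and leaving out each array were also tried. Arrays of hypothalamus were not analysed here.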

Additional observations from a re-analysis of the deposited data

Results flagged for a closer look

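Among the members outside the comparison because of blanks, Slc12a7 (KCC4), a potassium and chloride cotransporter, had signals of 8584, 5678 and 4769 on the 3 high-gainer arrays, a mean of 6344 ± 1993 (SD, n = 3 arrays), and no value on any low-gainer array. Slc5a9 (SGLT4), a sodium-coupled carrier of mannose, had 1715, 2923 and 2244 on the high-gainer arrays, a mean of 2294 ± 606 (SD, n = 3 arrays), and no value on any low-gainer array. They were singled out because a signal was present in 1 pool only, in data that no test used, and no fold is given against blanks. These 2 were 0.714% of the 280 solute carriers with a named probe. Among all 13840 named genes, 37 had the same pattern (0.267%) and 38 the opposite one, which 0 solute carriers had.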

How the results depend on the processing

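The counts of members called higher and lower in high gainers, 4 and 5, were unchanged under a second quantile normalization, centering and the mean over probes, and were 4 and 6 with the methods' ANOVA, with the offset and without dim probes (92 genes), and 6 and 5 with no fold threshold. The offset replaced Slc25a12 and Slc39a4 by Slc27a1, Slc4a8 and Slc9a3r1, and the removal of dim probes took out Slc39a4 and Slco4a1 and added Slc15a4, Slc27a1 and Slc9a3r1. A 2-fold threshold left 1 and 2. The intensity trend with robust estimation gave 4 and 10, adding Slc15a4, Slc16a6, Slc27a1, Slc4a8 and Slc9a3r1 to the lower genes. The methods' ANOVA after Benjamini-Hochberg adjustment left 0 and 1 (Slc25a12). Probes with values on at least 2 arrays of each pool (157 genes) gave 2 higher (Slc12a8 and Slc6a8) and 5 lower. Leaving out 1 array gave 0 to 1 higher and 2 to 5 lower genes, against 105 to 319 and 368 to 493 of all probes, where all 6 arrays gave 396 and 632. The cause of these shifts was not tested, beyond the fewer arrays, the stricter fold or the other set of probes that the alternatives themselves bring. Deviations of same-numbered arrays from their pool means correlated weakly (r = 0.04, -0.11 and 0.27), and the arrays were not treated as pairs. With the array number as a replicate block the counts were 4 higher (Slc6a13 and Slc6a8 as before, with Slc13a4 and Slc26a5) and 2 lower (Slc39a4 and Slco4a1), with Slc15a3, Slc27a5, Slc2a6, Slc25a12 and Slc43a3 past the threshold no longer (adjusted p = 0.0108, 0.0146, 0.0155, 0.0192 and 0.0224), and over all probes 173 and 446. Among the genes named here, the log2 ratio of Slc39a1 was -0.095 as the mean over probes. With 1 array left out the ratio changed sign for 9 of them, none called, and lay between -2.23 and 0.52 for Slc22a21, -0.20 and 0.20 for Slc16a3, -0.060 and 0.099 for Slc20a1, -0.086 and 0.088 for Slc40a1, -0.084 and 0.011 for Slc25a25, -0.033 and 0.050 for Slc2a4, -0.17 and 0.044 for Slc16a1, -0.23 and 0.052 for Slc1a3, and -0.0016 and 0.061 for Slc27a4. Each group was 1 pool, so that nothing here bears on the spread between mice.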

Other observations

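Slc22a21, a carnitine carrier chosen after its values were seen, had the lowest log2 ratio of the 140 members, -1.26 ± 1.31 SE (adjusted p = 0.57, limma). Signals were 4257, 4851 and 3543 in high gainers and 3296, 117457 and 2598 in low gainers. A single low-gainer array, replicate 2, carried the ratio, and the other 2 low-gainer arrays lay below all 3 high-gainer arrays. All 3 low-gainer arrays and 1 or 2 high-gainer arrays had a value for 13 solute carriers (4.64%, against 2.90% of all named genes), and the converse held for 6 (2.14%, against 2.25%).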
